A study of Mus musculus with 4 samples.

Results

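Mitotic and non-mitotic cells of the mouse gut epithelium were compared within the library made from embryos at day 12.5 of gestation (E12.5). The deposited data hold 22731 cell barcodes in 4 single-cell libraries, 1 for each of 4 groups: embryos at E12.5, embryos at E17.5, adults, and adults after irradiation. All groups carried Bmi1-GFP, a green fluorescent reporter of the Polycomb gene Bmi1, and the labels name no further allele or agent at E12.5 or E17.5. Intestinal epithelial cells were isolated by flow cytometry, at E12.5 after dissection and dissociation of the intestine, and the study describes them as expressing Bmi1. How many embryos were pooled and which gates were set are not given in the labels. Counts are unique molecular identifiers (UMIs), each standing for 1 captured RNA molecule.

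Of 5216 E12.5 barcodes, 3323 (63.7%, exact 95% binomial interval 62.4 to 65.0%) had at least 500 genes, at most 20% mitochondrial UMIs and at least 10000 UMIs. Cells were then chosen by the summed UMIs of 10 genes of late cell cycle, namely Mki67, Top2a, Ccnb1, Ccnb2, Cdk1, Birc5, Cenpf, Tpx2, Ube2c and Plk1. In 1068 cells (32.1%, 30.6 to 33.8%) these 10 genes made up at least 0.3% of the cell's UMIs, and these cells are called mitotic. In 545 cells (16.4%, 15.2 to 17.7%) they made up less than 0.03%, and these are called non-mitotic. The 1710 cells in between (51.5%) belong to neither group. Since measured levels of the 10 genes chose the cells, those levels are a description only. All other genes were measured in the same cells and follow the same cell cycle, so the differences below describe the 2 groups and carry no test. With 1 library, cells are not replicates, and the intervals printed cover counting error only.

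A dividing cell copies its DNA in S phase, passes through G2 and then separates its chromosomes in mitosis. Transcripts for the spindle, the kinetochores and the anaphase promoting complex accumulate towards mitosis, whereas transcripts for licensing and copying DNA accumulate around the passage from G1 into S phase. The early gut tube is lined by a pseudostratified epithelium of dividing endodermal progenitors, before villi and crypts form.

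**Figure D1:**
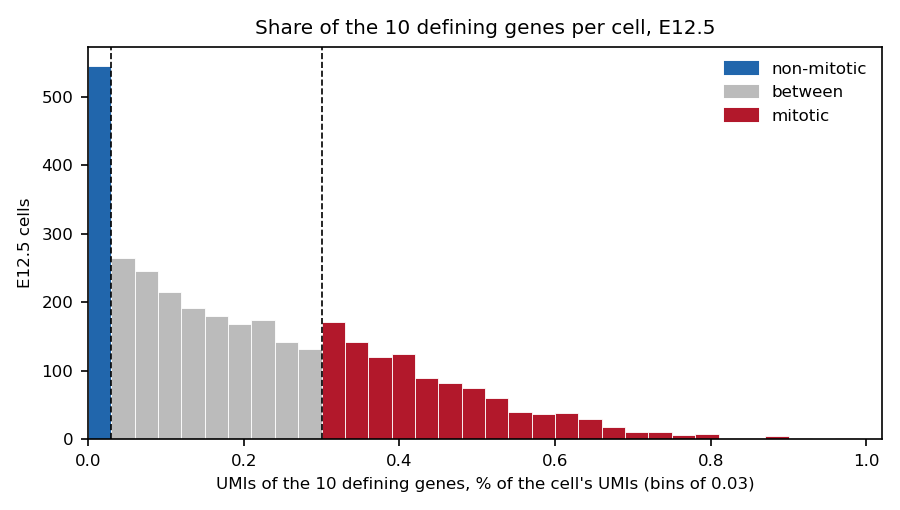
Number of E12.5 cells (vertical axis) by the percent of a cell's UMIs that came from the 10 defining genes (horizontal axis, bins of 0.03%), with dashed lines at 0.03% and 0.3%. The 545 non-mitotic cells (blue) fill the first bin, and the 1068 mitotic cells (red) form the upper side of a distribution without a gap at the threshold.

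The defining genes were far apart between the groups, as the rule requires. Ube2c, the ubiquitin-conjugating enzyme that works with the anaphase promoting complex, stood at 1101 counts per 1000000 UMIs of the group (CPM) in mitotic and 14.9 CPM in non-mitotic cells. Cenpf, a kinetochore protein, stood at 772 and 11.9 CPM, and the proliferation marker Mki67 at 280 and 7.72 CPM. The median share of the 10 genes was 0.414% in mitotic cells (highest 0.972%) and 0.0111% in non-mitotic cells (lowest 0%). The thresholds cut a continuum. Around the upper one, Ube2c was at 636 CPM in the 131 cells just outside and 741 CPM in the 171 cells just inside, that is, from 0.27% and up to 0.33%. Around the lower one, Cdc20, which was not used to choose cells, was at 17.4 CPM in the 140 cells from 0.02% up to the threshold and 20.2 CPM in the 111 cells from there up to 0.04%. Non-mitotic here means only low in these 10 genes, and the group takes in cells both rich and poor in replication transcripts.

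Both groups were epithelial by their markers. Epcam, the epithelial adhesion molecule, had a UMI in 99.6% of mitotic and 99.4% of non-mitotic cells, and was at 0 in 4 and 3 cells. Cdx2, the transcription factor that specifies intestine, was at 322 and 305 CPM. Mitotic cells gave more UMIs: the median was 24274 UMIs per cell (lowest 10086, highest 106228) against 14743 (10029 to 55242), and the mean was 1.64-fold higher. Of the 176 cells with the highest doublet scores 47 were mitotic and 2 non-mitotic, and their part in this difference was not tested. With them removed, 281 genes were at least 2-fold higher and 124 lower, by the rule given below. Median genes detected were 5364 and 4177, and median mitochondrial shares 4.30% and 4.72%. Because CPM is relative to this larger total, a gene at equal CPM had 1.64 times as many UMIs in a mitotic cell. Of 11061 genes compared, 10463 had more UMIs per mitotic than per non-mitotic cell and 598 had fewer.

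Markers of other cell types were rare in both groups. A cell was called marked where any of 7 marker lists (endocrine, pancreatic progenitor, mesenchyme, neural crest, endothelium, blood, mesothelium) reached 0.1% of its UMIs. This held for 18 mitotic cells (1.69%) and 23 non-mitotic cells (4.22%), of which 1 and 11 were endocrine-marked, 12 and 11 pancreatic-marked, and 3 and 2 mesenchyme-marked. E12.5 shared 6 to 12 barcodes with each other library, and 0 to 3 among cells passing the filter. Without replicates, counts of genes rest on a size rule. Genes with at least 100 UMIs over both groups were compared by log2((mitotic CPM + 1)/(non-mitotic CPM + 1)), and a gene counts as higher or lower from 2-fold.

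Of the 11061 genes compared, 283 (2.56%) were at least 2-fold higher in mitotic cells and 124 (1.12%) at least 2-fold lower, and the median log2 ratio was -0.05. The higher genes were led by the spindle: Nusap1, which binds and bundles spindle microtubules, was at 196 CPM (exact Poisson 95% interval 191 to 201) in mitotic and 2.01 CPM (1.21 to 3.14) in non-mitotic cells, a log2 ratio of 6.03. The lower genes were fewer, and among those named by a rule that asks for a UMI in at least 10% of cells the lowest was Ung. Ung, the uracil-DNA glycosylase that clears uracil from newly copied DNA, was at 32.4 CPM (30.4 to 34.5) in mitotic and 140 CPM (132 to 148) in non-mitotic cells, a log2 ratio of -2.08. Fixed lists of cell cycle and gut genes held 107 of the 283 higher and 18 of the 124 lower genes. The count of higher genes was 168 with a pseudocount of 10 CPM and 181 where only Ccnb1, Ccnb2, Tpx2, Ube2c and Plk1 chose the cells. The count of lower genes was 75 without the marked cells and moved by more than 1.5 times under further settings, given at the end.

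Genes of G2 and mitosis are known for 2 promoter motifs, the cell cycle genes homology region (CHR, TTTGAA) and the CCAAT box, and S phase genes for E2F sites. RefSeq promoters on GRCm38.p6, 250 bases before to 50 after the gene start, were available for 205 of the 283 higher genes and 8663 of the genes compared. On either strand, TTTGAA was present in 45.9% of the promoters of higher genes, 11.4% of those of all genes compared and 10.3% of those of 87 lower genes. CCAAT was present in 63.4%, 39.6% and 35.6%, and both together in 33.2%, 4.92% and 4.60%. Among all 27025 promoters listed by RefSeq, TTTGAA was present in 18.1%, CCAAT in 37.9% and both in 7.12%. Of the 43 matched promoters of the S phase list 9.30% held TTTGAA, and 62.8% held CCAAT, which is close to the share among higher genes. An E2F-type site (TTTGGCGC, TTTCCCGC, TTTCGCGC or TTTGCCGC) was present in 37.2% of them, in 9.76% of the higher genes and in 4.43% of the genes compared. The matches describe letters only, and binding was not measured.

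The 150 bases before the start of 3 named higher genes and of Ung are shown. The 3 were picked because they hold both motifs within these bases, which the other named higher genes with a promoter did not. CCAAT boxes (or ATTGG, the same box on the other strand) and CHR elements (TTTGAA or TTCAAA) are in capitals. Each sequence runs 5′ to 3′ on the gene's strand, and all are from RefSeq on GRCm38.p6.
Cdc20 (chr4:118437344-118437493, minus strand): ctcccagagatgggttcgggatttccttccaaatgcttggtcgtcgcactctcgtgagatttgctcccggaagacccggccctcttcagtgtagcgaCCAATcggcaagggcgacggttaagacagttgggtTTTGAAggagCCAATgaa
Kif11 (chr19:37376232-37376381, plus strand): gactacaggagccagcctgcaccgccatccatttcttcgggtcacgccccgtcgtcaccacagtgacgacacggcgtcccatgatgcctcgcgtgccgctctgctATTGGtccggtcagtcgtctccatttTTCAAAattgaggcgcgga
Ckap2l (chr2:129297213-129297362, minus strand): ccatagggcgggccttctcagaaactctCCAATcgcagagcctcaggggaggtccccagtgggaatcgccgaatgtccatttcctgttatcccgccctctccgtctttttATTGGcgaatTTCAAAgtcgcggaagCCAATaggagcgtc
Ung (chr5:114130285-114130434, plus strand): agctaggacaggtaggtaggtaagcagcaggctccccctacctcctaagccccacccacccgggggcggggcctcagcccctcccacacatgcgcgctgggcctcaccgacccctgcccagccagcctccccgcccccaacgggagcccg
In Cdc20 the CHR element ended 13 bases before the start with CCAAT boxes at 49 and 4 bases. In Kif11 the CHR element ended at 14 and the box at 41 bases, and in Ckap2l the CHR element at 25 and boxes at 118, 36 and 10 bases. The Ung window held neither set of letters. Of the 15 named higher genes 12 had a promoter. In the longer window, 250 bases before to 50 after the start, 9 of these held a CHR element, 8 a CCAAT box and 7 both. Nusap1, the highest of them, and Sapcd2 held neither there. Of 13 named lower genes with a promoter, 1 (Postn) held a CHR element and 5 a CCAAT box in that window.

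Spindle and cytokinesis genes stood highest of the lists. Of 35 compared genes 33 were at least 2-fold higher and none lower, with a median log2 ratio of 3.30 beside -0.05 over all genes. The counts of this and the following lists stand beside 2.56% higher and 1.12% lower over all genes. Prc1, which bundles microtubules of the central spindle, was at 259 CPM (254 to 265) in mitotic and 6.88 CPM (5.31 to 8.77) in non-mitotic cells. Hmmr, a spindle-associated hyaluronan receptor, was at 144 and 2.01 CPM, and Aspm, a spindle pole protein, at 67.1 and 1.69 CPM. The motor Kif11, which pushes spindle poles apart, was at 116 and 4.13 CPM, and Kif2c, which depolymerizes microtubules at centromeres, at 69.1 and 1.80 CPM. The cytokinesis regulators Racgap1 and Ect2 were 15.9-fold and 6.39-fold higher. Below 2-fold were Cep70, a centrosome protein, with a log2 ratio of 0.58, and Haus1, an augmin subunit, with 0.45.

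The same genes separated single cells. After each cell was thinned to 10000 UMIs, Nusap1 had a UMI in 82.2% of mitotic cells (median 2, 90th percentile 4, highest 11 UMIs) and in 1.65% of non-mitotic cells (highest 1 UMI). Prc1 had one in 89.8% (median 2, highest 11) and 6.42% (highest 2). Free RNA in droplets can give such low shares, so a share as low as those in non-mitotic cells is not read as expression. The median depths before thinning were those of the 2 groups given above. Pimreg, a mitotic regulator outside the fixed lists, had a UMI in 61.8% and 2.02% of thinned cells.

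**Figure D2:**
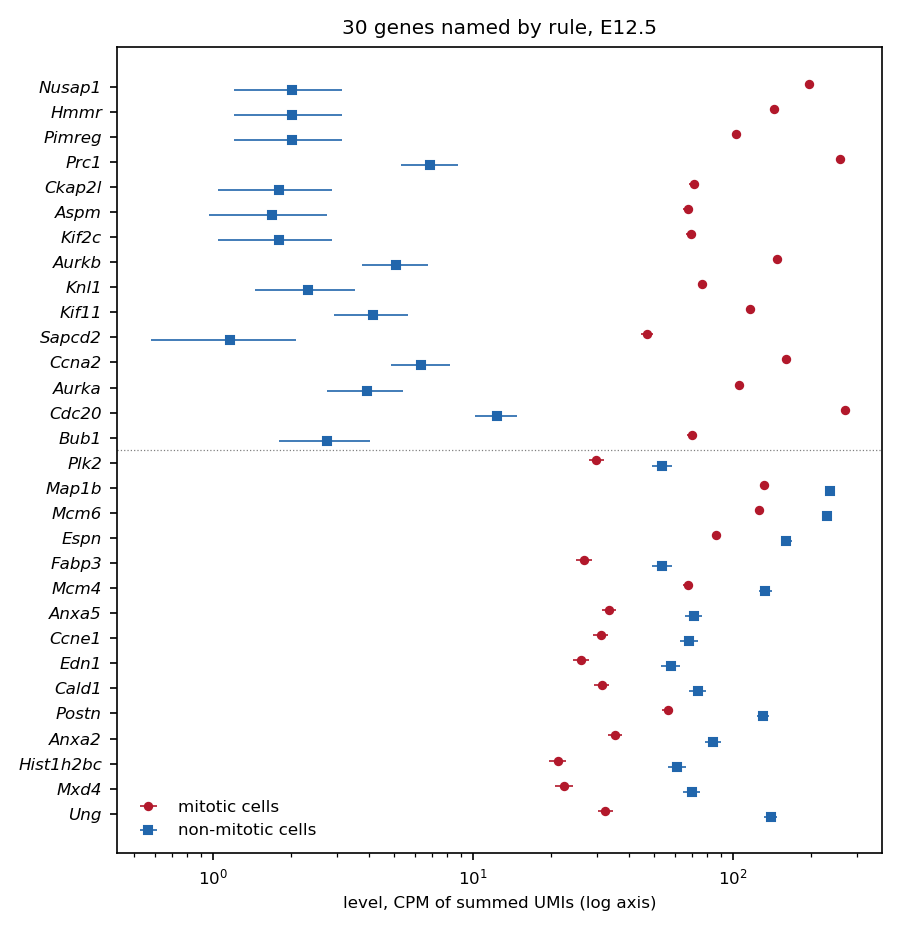
Levels of the 30 genes named by rule in E12.5 mitotic (red circles) and non-mitotic cells (blue squares), in CPM of summed UMIs on a log axis, with exact Poisson 95% intervals for counting error. The 15 higher genes lie at 1.16 to 12.4 CPM in non-mitotic cells, and the 15 lower genes have smaller gaps between the groups.

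Kinetochore and spindle checkpoint genes came next, with 30 of 36 at least 2-fold higher, none lower and a median log2 ratio of 2.52. Aurkb, the kinase of the chromosomal passenger complex, was at 148 CPM in mitotic and 5.08 CPM in non-mitotic cells. Its partner Cdca8 was 14.9-fold higher, the kinetochore scaffold Knl1 23.3-fold and the checkpoint kinase Bub1 18.9-fold. Cenpa, the histone variant of centromeres, was at 318 and 32.4 CPM. The constitutive centromere protein Cenpt had the lowest ratio of the list, 0.36 on the log2 scale.

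Regulators of mitotic entry and exit were less uniform. Of 27 genes 21 were at least 2-fold higher, none lower, with a median log2 ratio of 2.06. Cdc20, the activator of the anaphase promoting complex, was at 270 CPM (264 to 276) and 12.4 CPM (10.2 to 14.8), and had a UMI in 87.5% and 11.4% of thinned cells. Ccna2, a cyclin of S phase and mitosis, was 22.0-fold higher, the centrosome kinase Aurka 21.8-fold and Foxm1, a transcription factor of G2 and mitotic genes, 6.72-fold. The ubiquitin-conjugating enzyme Ube2s was at 682 and 231 CPM, and Fzr1, which activates the complex in late mitosis and G1, at 69.9 and 25.1 CPM. The securin gene Pttg1 was at 30.6 CPM (28.7 to 32.7) and 32.5 CPM (29.0 to 36.3), with overlapping intervals, and Wee1, which holds mitosis back, at 121 and 94.2 CPM.

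Condensin and cohesin genes divided by subunit. Of 18 genes 8 were at least 2-fold higher and none lower, beside 2.56% and 1.12% over all genes, with a median log2 ratio of 0.69. The condensin subunits Ncapg, Smc4 and Smc2 were 17.3-fold, 7.30-fold and 4.83-fold higher, whereas the condensin subunits Ncapd3 and Ncaph2 were short of 2-fold. The cohesin subunit Rad21 was 2.19-fold higher, whereas its partner Smc3 was at 283 and 249 CPM and the cohesin loader Nipbl at 131 and 118 CPM.

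Among chromatin and nuclear envelope genes 3 of 23 were at least 2-fold higher and 1 lower, beside 2.56% and 1.12% over all genes. The higher ones were H2afx at 596 and 116 CPM, Hmgb2 at 1616 and 356 CPM and H1f0 at 171 and 82.3 CPM. Lmna, which encodes A-type lamins, was the lower one, at 7.51 CPM (6.57 to 8.55) and 23.1 CPM (20.1 to 26.3). Lmnb1, for a B-type lamin, had a log2 ratio of 0.71. Of 15 tubulin and microtubule genes Tuba1c (2.08 on the log2 scale) and Tubb4b (1.62) were past 2-fold, and Tubb5 had a ratio of 0.70. Tubulin and histone genes have near-identical copies, between which the counting may have split or dropped reads.

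Of the 176 higher genes outside the fixed lists, several belong to the same machinery, chosen here after their values were seen. Hjurp, the chaperone that places Cenpa at centromeres, was at 148 and 58.4 CPM. Cdca3 was at 161 and 10.8 CPM, Psrc1, a spindle protein, at 53.6 and 1.90 CPM, and Esco2, the cohesin acetyltransferase of S phase, at 58.3 and 3.81 CPM. Sapcd2, a regulator of spindle orientation, was at 46.9 and 1.16 CPM.

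**Figure D3:**
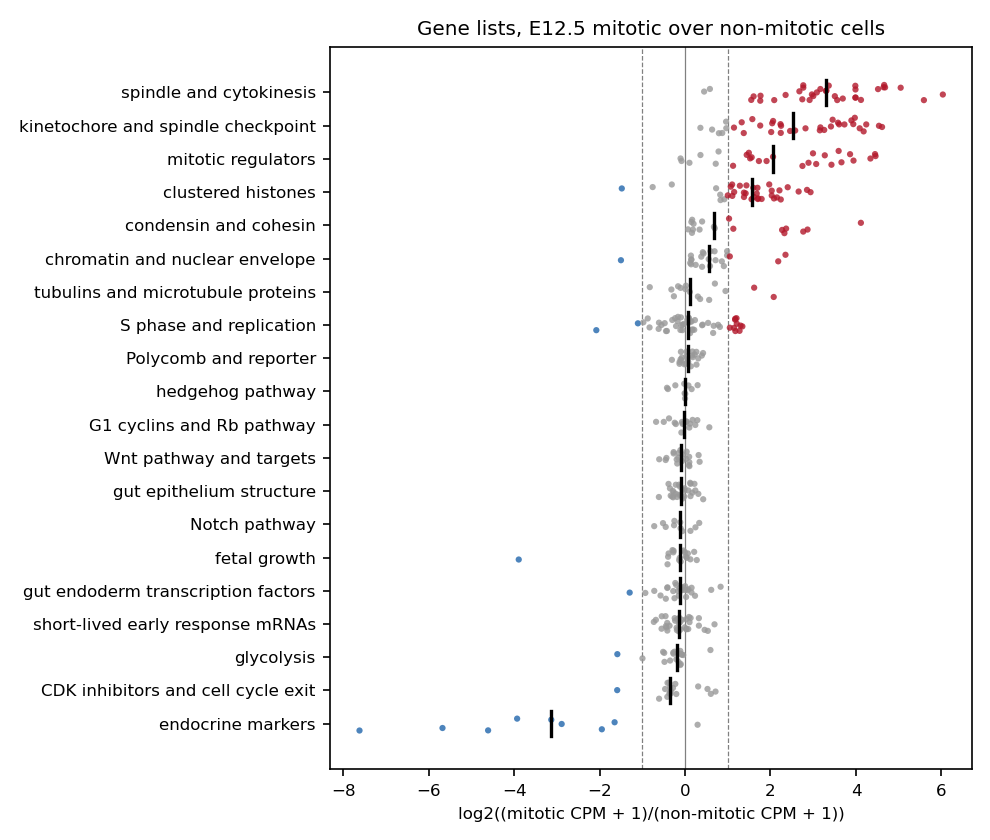
Log2((mitotic CPM + 1)/(non-mitotic CPM + 1)) at E12.5 for each compared gene of 20 lists, with the median as a black bar and dashed lines at 2-fold (red, at least 2-fold higher; blue, at least 2-fold lower). The spindle list has a median of 3.30, and the S phase list spreads from -2.08 to 1.34 around a median of 0.08. The 9 endocrine markers with enough UMIs to compare, of 22, have a median of -3.13.

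Replication genes did not differ in 1 direction. Of 52 S phase genes 10 were at least 2-fold higher in mitotic cells and 2 lower, beside 2.56% and 1.12% over all genes. The median log2 ratio of the list was 0.08. The higher ones were Mcm10, E2f7, Rfc5, Clspn, Rrm2, Rfc4, Rrm1, E2f8, Cdc45 and Tyms, with log2 ratios of 1.05 to 1.34. These calls depended on how cells were chosen: where only Ccnb1, Ccnb2, Tpx2, Ube2c and Plk1 chose them, 0 of the 52 were higher and 9 lower, and Clspn (-0.33), E2f8 (-0.28), Rrm2 (-0.14) and E2f7 (-0.062) lay below 0. Against S-rich non-mitotic cells, those at or above the median share of the S phase list (the rest are called S-poor), 0 were higher and 8 lower. The same 52 genes define that split, so lower ratios against S-rich and higher ones against S-poor cells are built in. Values of S phase genes under it are a description. Rrm2, a subunit of ribonucleotide reductase, was at 130 and 55.7 CPM. The lower ones were Ung and Ccne1, the G1/S cyclin, at 31.1 CPM (29.1 to 33.1) and 67.9 CPM (62.8 to 73.4). Ccne1 was no longer past 2-fold with trimmed-mean scaling (-0.98) or against the S-poor non-mitotic cells alone (-0.43). In the list as a whole 30 genes lay above 0 on the log2 scale and 22 below. Subunits of the replicative helicase, chosen here after their values were seen, ran from -0.97 for Mcm4 and -0.87 for Mcm6 through -0.62 for Mcm2, -0.44 for Mcm3 and -0.30 for Mcm5 to 0.07 for Mcm7. The loading factor Cdc6 was at 16.0 and 23.9 CPM (-0.55), but at 0.60 against the S-poor non-mitotic cells alone. Pcna, the sliding clamp, had a ratio of -0.17, and Lig1, the replicative ligase, 0.17.

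Ung separated single cells more than the other replication genes. It had a UMI in 16.9% of thinned mitotic cells (14.7 to 19.3%; 90th percentile 1, highest 7 UMIs) and in 69.2% of thinned non-mitotic cells (65.1 to 73.0%; 90th percentile 3, highest 7). Mean UMIs per cell before thinning were 0.921 and 2.43. The helicase genes were close per cell, with 3.58 and 4.01 UMIs of Mcm6 and 1.92 and 2.32 of Mcm4. Of the 52 genes 5 had fewer UMIs per mitotic cell.

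The cells between the thresholds placed these genes in an order. Cells were divided by the share of the defining genes into 6 bins, below 0.03%, 0.03 to 0.1%, 0.1 to 0.2%, 0.2 to 0.3%, 0.3 to 0.5% and from 0.5%, holding 545, 578, 637, 495, 768 and 300 cells. Ung had 140 CPM in the first bin, 160 in the second, and then 109, 64.9, 39.4 and 8.73 CPM. Ccne1 followed the same course, with 67.9, 93.2, 79.8, 53.7, 35.1 and 17.3 CPM. All 52 S phase genes were highest between 0.03 and 0.3%: 22 at 0.03 to 0.1%, 28 at 0.1 to 0.2% and 2 at 0.2 to 0.3%. Clspn, which signals stalled forks, had 29.2, 95.8, 109, 82.6, 74.1 and 51.3 CPM, so its level in mitotic cells lay between the extremes. Of the spindle genes 34 of 35 were highest from 0.5%, as were 30 of 36 kinetochore genes and 21 of 27 regulators, which the rule favours since the bins use like genes.

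**Figure D4:**
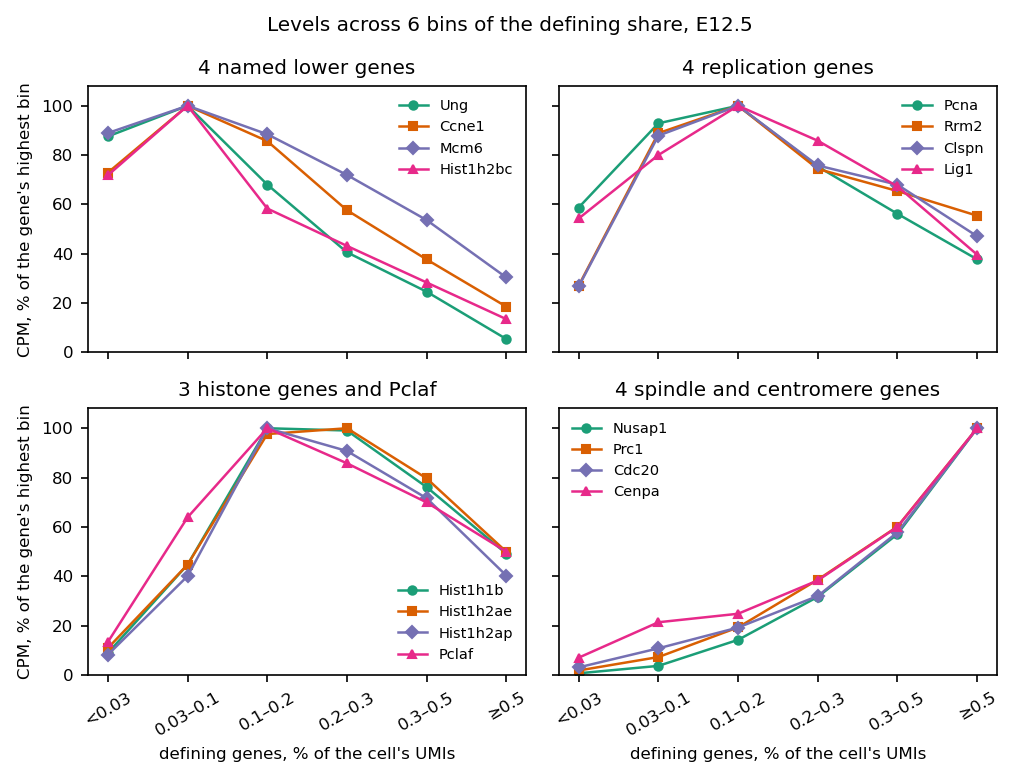
Levels of 16 genes across the 6 bins of the defining share (horizontal axis, percent of the cell's UMIs), each as a percent of the gene's highest bin, at E12.5. Ung, Ccne1, Mcm6 and Hist1h2bc are highest at 0.03 to 0.1%, Pcna, Rrm2, Clspn and Lig1 at 0.1 to 0.2%, and Nusap1, Prc1, Cdc20 and Cenpa from 0.5%.

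Clustered histone genes, whose synthesis is tied to DNA copying, were taken by name as a list added after the values had been seen. Of 36 compared 29 were at least 2-fold higher in mitotic cells and 1 lower, beside 2.56% and 1.12% over all genes. The median log2 ratio of the list was 1.58. Hist1h1b, a linker histone, was at 278 and 35.4 CPM, and Hist1h2ap at 79.0 and 10.1 CPM. These genes were not highest in the most mitotic cells: 20 of 36 were highest at 0.2 to 0.3% and 11 at 0.1 to 0.2%. Hist1h1b had 35.4, 178, 397, 394, 303 and 195 CPM over the 6 bins. Pclaf, the Pcna-associated factor, chosen after its values were seen, had 61.8, 295, 461, 396, 323 and 231 CPM. Hist1h2bc went the other way, with 21.3 CPM in mitotic and 61.1 CPM in non-mitotic cells, and Hist3h2ba had 110 and 187 CPM. Most histone transcripts end without a poly(A) tail, so a kit that primes on poly(A) captures only part of them.

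The S phase list also divided each group. Its median share was 0.449% of UMIs over all cells passing the filter, and 28.9% of mitotic (309 cells), 30.3% of non-mitotic (165 cells) and 69.5% of between cells were at or above it. By bin, these shares were 30.3, 65.9, 76.5, 64.6, 38.02 and 5.67%. Mitotic cells below the median had more Cdc20 (309 against 189 CPM), Cenpa (363 against 226 CPM) and Arl6ip1 (1018 against 698 CPM), and less Hist1h1b (202 against 435 CPM). Nusap1 differed less, with 214 and 160 CPM. Non-mitotic cells at or above the median had more Ung (221 against 102 CPM) and Ccne1 (124 against 42.1 CPM). Since the list defined this split, the values for Ung and Ccne1 are a description.

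Regulators of G1 and of cell cycle exit differed little. None of 17 genes of G1 cyclins and the Rb pathway was past 2-fold, and the median log2 ratio was -0.03. Over all genes compared only 2.56% were higher and 1.12% lower, so that count is not read as a trait of the list. Cdk4 was at 795 and 774 CPM, Ccnd2 at 274 and 288 CPM, and Ccnd1 at 80.0 and 104 CPM. Of 18 inhibitors and exit genes 1 was lower and none higher, with a median of -0.35. The lower one was Mxd4, a partner of Max that opposes Myc, at 22.5 CPM (20.8 to 24.2) and 69.5 CPM (64.3 to 75.05). It was highest in the first bin, and it was past 2-fold lower under each of the 20 alternative settings tried for single genes. The inhibitors Cdkn1c and Cdkn1a were at 349 and 463 CPM and at 126 and 175 CPM, whereas Cdkn1b (0.53) and Ccng2 (0.71) lay above 0 on the log2 scale.

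Short-lived early response transcripts were close between the groups, with none of 35 past 2-fold and a median of -0.14. The shares over all genes compared were 2.56% higher and 1.12% lower, so few would be past it in any such list. Fos was at 218 and 247 CPM, Jun at 662 and 895 CPM, Rhob at 38.9 and 65.2 CPM and Nr4a2 at 8.47 and 4.87 CPM.

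Among gut identity genes, none of 29 epithelial structure genes was past 2-fold, beside 2.56% higher and 1.12% lower over all genes. The lowest log2 ratio among them was -0.61, for Krt7, a simple epithelial keratin. Of 27 gut endoderm transcription factors 1 was lower and none higher. Hhex, of foregut endoderm, was the lower one, at 5.83 and 15.8 CPM, and Pdx1, of duodenum and pancreas, was at 10.3 and 20.5 CPM. Without the marked cells their log2 ratios were -1.23 and -0.62, and against the S-rich non-mitotic cells that of Hhex was -0.65. Onecut2 (0.83) and Gata4 (0.61) were highest of the list.

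Signalling genes showed the same narrow range, with none past 2-fold among 20 Wnt, 11 Notch, 10 hedgehog and 24 Polycomb and reporter genes. Their medians were -0.09, -0.11, -0.00 and 0.06. With 2.56% higher and 1.12% lower over all genes, the lack of calls is not read as a trait of these lists. Shh, the epithelial hedgehog ligand, was at 326 CPM (320 to 333) and 328 CPM (317 to 340). Hes1, a Notch target, was at 333 and 396 CPM, and the Wnt targets Axin2 and Sp5 at 9.26 and 8.99 CPM and at 22.6 and 34.8 CPM. Bmi1 was at 16.9 CPM (15.5 to 18.4) and 13.9 CPM (11.6 to 16.4), with overlapping intervals, and had a UMI in 14.98% and 14.5% of thinned cells. The reporter eGFP was at 23.4 CPM (21.7 to 25.1) and 19.3 CPM (16.6 to 22.3), also overlapping, with a UMI in 21.4% and 19.8% of thinned cells. Among fetal growth genes only Peg10 was past 2-fold, and among glycolysis genes only Aldoc, at 4.38 and 15.1 CPM. Hoxb13, the most posterior Hox gene compared and the only 1 of 16 past 2-fold, was at 11.3 and 3.81 CPM. It was past 2-fold in 14 of 19 alternatives and lowest, at 0.62 on the log2 scale, with non-mitotic cells below 0.01%. The trimmed-mean scaling raised the median log2 ratio over all genes by 0.11, which is as large as most of these medians, so they carry no direction.

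Endocrine genes were the lowest in mitotic cells and came from very few cells. Of 22 endocrine markers 9 had enough UMIs to compare, and 8 of these were at least 2-fold lower, beside 1.12% over all genes. Gcg, Chgb, Pcsk1n, Pcsk2 and Chga had 19, 7, 10, 2 and 12 UMIs in mitotic cells. These 5 reached 100 UMIs only through the non-mitotic cells, so the floor favoured lower ratios and the count is a description. Gcg, the proglucagon gene, had 19 UMIs in 18 mitotic cells and 3009 UMIs in 7 non-mitotic cells, up to 1696 in a cell. The 11 endocrine-marked cells, 11 of 545 non-mitotic cells, held 99.97% of non-mitotic Gcg UMIs and 99.0% of those of Chgb (secretogranin B). Both genes are on the list that marked these cells, so these shares are built in. Of Pyy (peptide YY) and Peg10, which are not on it, the same cells held 95.7% and 96.0%. Without marked cells Pyy had a log2 ratio of -2.91, against -7.25 with them, and the neuronal and endocrine gene Stmn2 -0.36, against -2.06. Leaving out marked cells also removes those marked for other types. All 160 Stmn2 UMIs of the 11 endocrine-marked cells were in 1 cell.

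Of the other named lower genes, Postn, Cald1, Anxa2 and Anxa5 kept their values without the marked cells, at -1.24, -1.20, -1.23 and -1.05 on the log2 scale against -1.21, -1.20, -1.23 and -1.06. Postn, a secreted matricellular protein, was at 56.2 and 131 CPM, and Cald1, an actin-binding protein, at 31.3 and 73.4 CPM. Both are abundant in mesenchyme. The 18 mesenchymal markers together were at 20.5 CPM (up to 0.376% of a cell) in mitotic and 31.7 CPM (up to 0.218%) in non-mitotic cells, with 0 of the 18 at 0 UMIs in the former and 3 in the latter. Of the 2 with enough UMIs to compare, Tagln, a smooth muscle actin-binding protein, was 2-fold lower, at 5.27 and 13.4 CPM (-1.20), and the other had a log2 ratio of 0.03. Like Postn and Cald1, Tagln was higher in the S-poor non-mitotic cells, at 16.7 against 6.35 CPM in the S-rich ones. The part of mesenchymal RNA in these values was not tested. The higher levels lay in non-mitotic cells below the S list median, with 172 CPM of Postn against 42.4 CPM in those at or above it, and 92.7 against 31.8 CPM of Cald1. Against the S-rich non-mitotic cells alone, the log2 ratio of Postn was 0.40, that of Cald1 -0.02 and that of Anxa5 -0.17. After thinning, Cald1 (-0.94), Anxa5 (-0.89) and Edn1 (-0.93) fell short of 2-fold, as did Anxa5 with trimmed-mean scaling (-0.94). The annexin Anxa2 was at 35.2 and 83.9 CPM, Edn1, the endothelin precursor, at 26.2 and 57.9 CPM, and the actin bundler Espn at 86.5 and 161 CPM. The last named ones, each short of 2-fold, were Map1b, a microtubule-associated protein, at 132.5 and 236 CPM, the kinase gene Plk2 at 29.8 and 53.6 CPM, and Fabp3, a fatty acid binding protein, at 26.9 and 53.3 CPM.

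The same rule was applied to the E17.5 library, whose cells took no part in choosing these genes, to see which differences were found in both. It gave 575 mitotic and 934 non-mitotic of 2550 cells there, 25 and 648 of 790 in the adult and 3 and 1353 of 1394 in the irradiated adult, so only E17.5 was compared. Marked cells were left out of both libraries, which removed 117 mitotic and 590 non-mitotic cells at E17.5 and left 458 mitotic and 344 non-mitotic cells, beside 1050 and 522 at E12.5. Of 9489 genes compared at E17.5, 850 (8.96%) were at least 2-fold higher and 796 (8.39%) lower in mitotic cells. With 1 library per age the difference between ages was not tested.

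Among genes compared at both ages, nearly all higher genes were also higher at E17.5, and most lower genes were not lower there. Without marked cells 75 genes were lower at E12.5, and only 26 of these had enough UMIs to be compared at E17.5. Of 8942 genes compared at both ages, 249 were higher at E12.5 and 811 at E17.5, and 241 were shared, which is 96.8% of the E12.5 and 29.7% of the E17.5 genes. Of 26 lower genes at E12.5 and 554 at E17.5, 7 were shared (26.9% and 1.26%), namely Mxd4, Anxa2, Anxa5, Aldoc, Rec8, Tcn2 and Trp53inp1. Among all 9489 genes compared at E17.5, 8.96% were higher and 8.39% lower. The shared parts of the E12.5 genes, 96.8% and 26.9%, both lay above these, which are taken over more genes than the 8942 compared at both ages. The same 10 genes chose the cells in both libraries. Sharing of higher genes is therefore favoured by the rule, and these shares are a description. Mxd4 was at 12.8 and 30.5 CPM at E17.5, and Anxa2 at 162 and 357 CPM. Across the 8942 genes the log2 ratios of the 2 ages correlated with Pearson's r = 0.68 and Spearman's rho = 0.49, a description over genes that share each library.

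All 15 named higher genes lay above 0 at E17.5 and 14 were past 2-fold, with 6.87 for Nusap1, and Pimreg had 0 UMIs in the non-mitotic cells there. The exception was Sapcd2, at 70.2 and 39.0 CPM (0.83). All 35 spindle genes (median 4.39) and all 36 kinetochore genes (median 3.29) compared at both ages were past 2-fold at E17.5. The rule favours this, since like genes chose the cells. The S phase list stood differently: 38 of 51 genes were at least 2-fold higher at E17.5 with a median of 1.41, against 9 of 51 and a median of 0.06 at E12.5. Ung was at 16.3 and 12.9 CPM there (0.31), Mcm6 at 83.1 and 66.1 CPM (0.33) and Ccne1 at 19.5 and 11.1 CPM (0.77). Mcm4 had 0.85, so the 4 replication genes among the named lower genes at E12.5 all lay above 0 at E17.5. Of all 15 named lower genes 8 lay below 0 there and 3 were past 2-fold, namely Mxd4, Anxa2 and Anxa5.

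**Figure D5:**
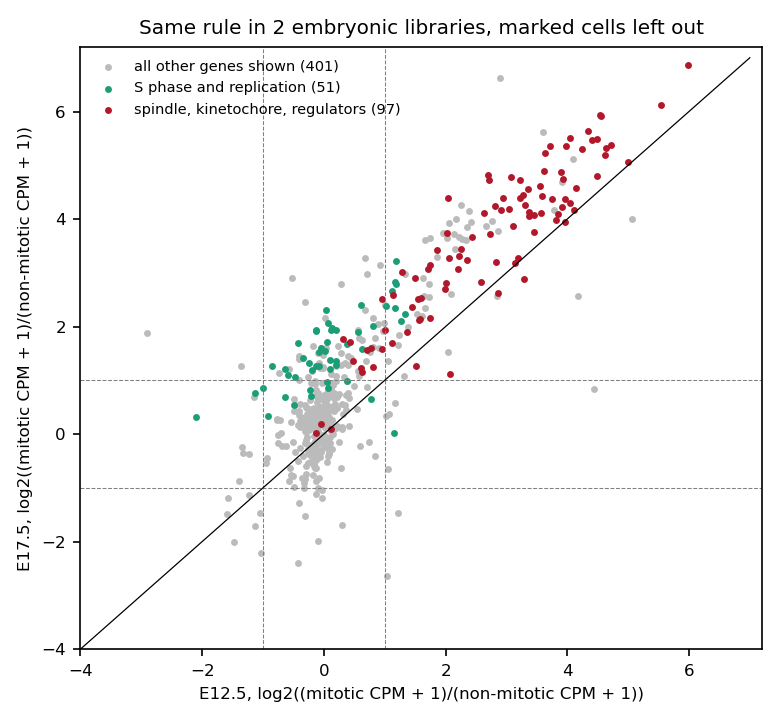
Log2((mitotic CPM + 1)/(non-mitotic CPM + 1)) at E17.5 against E12.5 for list genes and named genes compared in both libraries, marked cells left out, with dashed lines at 2-fold and a solid line of equality. Most spindle, kinetochore and regulator genes (red, 97) lie past 2-fold at both ages, and of the 51 S phase genes (green) 38 lie past 2-fold higher at E17.5 and 9 at E12.5.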

How the data were processed

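Single-cell RNA of 4 libraries was measured with a 10x 3' kit that counts UMIs, per the labels' protocols. The values are raw UMI counts per gene and cell, as deposited by the authors. Cell Ranger 3.1.0 and mm10 are named in the submitters' processing notes, and the annotation is not given in the sources used here. From the counts, UMIs were summed over the cells of each group with Python 3.11.15 (numpy 2.4.6, pandas 2.3.3, scipy 1.17.1) and scaled to CPM. The total was 30354794 UMIs in mitotic and 9450554 in non-mitotic cells. Genes with at least 100 UMIs over both groups were compared, with a pseudocount of 1 CPM and a 2-fold rule. No test was possible with 1 library. Level intervals are exact Poisson and shares exact binomial (Clopper-Pearson), both 95% and for counting error only.

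Named genes were the 15 highest and 15 lowest log2 ratios among compared genes that passed a floor. The floor was at least 500 UMIs in the higher group and a UMI in at least 10% of its cells. Left aside were the 10 defining genes, predicted genes, Xist, Tsix and the Y chromosome genes Ddx3y, Uty, Kdm5d and Eif2s3y. Genes for haemoglobins, immunoglobulins, ribosomal proteins and the mitochondrial genome were left aside too. Members of the fixed lists, Bmi1 and eGFP were also named. Members and lists were chosen with earlier results of these data known. The histone, ribosomal protein, mitochondrial and Hox lists were taken by symbol pattern after the values had been seen. Thinning drew UMIs at random down to 10000 per cell. Doublets were scored with Scrublet in scanpy 1.11.5. Its automatic threshold marked 0 cells, so doublets were kept, and removal of the 176 highest-scoring of 4226 cells was an alternative. Scaling by the trimmed mean of M values (TMM) used edgeR 4.0.16. Scripts were tested on simulated data. In all, 21 alternatives were tried. The adult libraries were not compared because the rule found 25 and 3 mitotic cells there.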

Additional observations from a re-analysis of the deposited data

Results flagged for a closer look

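In the comparison of E12.5 with E17.5, marked cells left out, 4 genes were past 2-fold in opposite directions at the 2 ages. Each age has 1 library, and the difference between ages was not tested. The E12.5 calls of Fabp2 and Tfcp2l1 lie near the threshold: over the settings tried, Fabp2 was past 2-fold in 14 of 20 alternatives (lowest log2 ratio 0.59) and Tfcp2l1 in 14 of 19 (lowest 0.60). Tspan1 was past 2-fold in 17 of 20 (-0.36 against S-rich non-mitotic cells). Fabp2, the intestinal fatty acid binding protein of absorptive cells, was higher in mitotic cells at E12.5 (57.3 and 27.5 CPM, log2 ratio 1.03) and lower at E17.5 (1449 and 9035 CPM, -2.64). Tfcp2l1, a grainyhead-like transcription factor, was at 13.2 and 5.11 CPM at E12.5 (1.22) and 4.37 and 13.9 CPM at E17.5 (-1.47). Pyy, the enteroendocrine peptide gene, was at 1.04 and 14.3 CPM at E12.5 (-2.91) and 29.96 and 7.37 CPM at E17.5 (1.89). Its E12.5 value rests on 31 UMIs in mitotic and 129 in non-mitotic cells. Before marked cells were left out, 22 of the 545 non-mitotic cells had a Pyy UMI. Pyy was not among the endocrine markers used to leave cells out, and the part of remaining endocrine cells was not tested. Tspan1, a tetraspanin, was at 11.1 and 29.96 CPM at E12.5 (-1.36) and 63.5 and 25.7 CPM at E17.5 (1.27).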

How the results depend on the processing

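Counts of genes 2-fold higher (283) and lower (124) changed most with thresholds. Higher genes numbered 181 where Ccnb1, Ccnb2, Tpx2, Ube2c and Plk1 alone chose the cells, 168 with a pseudocount of 10 CPM and 484 at 1.5-fold. Lower genes numbered 80 after thinning, 195 with non-mitotic cells below 0.01%, 75 without marked cells, 193 against S-poor and 57 against S-rich non-mitotic cells, 277 from 10 and 26 from 500 UMIs per gene, 223 and 24 with pseudocounts of 0.1 and 10 CPM, and 712 at 1.5-fold. Of 52 S phase genes, higher ones numbered 10, but 6 with mitotic from 0.5%, 5 with a pseudocount of 10 CPM, and 0 with the 5-gene rule or S-rich non-mitotic cells. Lower ones numbered 2, but 1 with TMM, cells from 20000 UMIs, non-mitotic below 0.01%, the other 5 defining genes, S-poor non-mitotic cells or a pseudocount of 10 CPM, 4 with the mean of cells' CPM, 5 after thinning, 6 in cells of 10000 to 30000 UMIs, 8 with mitotic from 0.5% or S-rich non-mitotic cells, 9 with the 5-gene rule and 7 at 1.5-fold. With the 5-gene rule the log2 ratios of Clspn (-0.33), E2f7 (-0.062), E2f8 (-0.28), Mybl2 (-0.27) and Rrm2 (-0.14) turned negative, and Postn was 0.40 against S-rich cells. The cause was not tested. The 52 S phase genes define the S-rich and S-poor splits, so their counts under those splits are a description. Of 88 genes past 2-fold among 158 named, 82 kept their sign under every alternative run for them and 51 also stayed past 2-fold. TMM moved the all-gene median by 0.11 on the log2 scale. Depth limits the non-mitotic side, where 545 cells gave 9450554 UMIs. No paired analysis was possible because each group comes from 1 library.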

Other observations

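Genes of translation and respiration were close between the groups. Over all genes compared 2.56% were at least 2-fold higher and 1.12% lower. None of 81 ribosomal protein genes and none of 13 mitochondrial genes was past 2-fold, with medians of -0.13 for both and -0.05 over all genes, which is about the size of the shift of 0.11 from trimmed-mean scaling and carries no direction. Per cell, each of the 81 and each of the 13 had more UMIs in mitotic than in non-mitotic cells, with median ratios of 1.499 and 1.491. Over all genes compared 10463 of 11061 did, with a median ratio of 1.58, so both lists lay slightly below the general value. Of 20 glycolysis genes 19 lay below 0 on the log2 scale, with a median of -0.18 before that shift, and Slc2a3, a glucose transporter, was the exception at 0.59. Vim, an intermediate filament gene, was at 431 and 721 CPM. The secreted phosphoprotein Spp1 had a log2 ratio of -1.25, but -0.38 with non-mitotic cells below 0.01%, and was past 2-fold in 15 of 20 alternatives. It was not among the lower genes named by the rule that asks for a UMI in at least 10% of cells.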
